A study of Mus musculus with 12 samples.

Results

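Connexins and pannexins are families of large-pore membrane channels, and 7 of their genes were followed here in astrocytes of mice with 2, 1 or no intact copies of Cd38. The genes are Gja1, Gjb6, Gjb2, Gja4, Gjc3, Panx1 and Panx2. The rule that chose them lists their names and uses no measured value, and they make up 7 of the 20614 genes in the expression table. The choice rested on the known passage of NAD through connexin hemichannels.

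The study isolated astrocytes from male mice of 12 to 14 months, all bred from C57BL/6J, and sequenced 12 libraries. There were 3 Cd38+/+ libraries, 3 Cd38+/- libraries and 6 Cd38-/- libraries. The mutant allele is the B6.129P2-Cd38tm1Lnd/J disruption, which is global, so the cells around the astrocytes carried it too. The tissue, called midbrain in the labels, was dissected from striatum, thalamus and substantia nigra. Astrocytes were captured with beads against the surface antigen ACSA-2, after beads had removed endothelial cells, myelin and oligodendrocytes, and CD11b-positive cells. All genotypes went through the same steps. Levels are in TPM, a unit that is scaled per transcript length and to the same total in every library, so levels of different genes can be set side by side. The labels do not say whether replicates were separate animals, so p-values measure the spread between these libraries only.

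Connexins assemble into hexameric hemichannels, and hemichannels of neighboring cells dock into gap junctions that carry ions and small metabolites from cell to cell. In astrocytes, Cx43 (from Gja1) and Cx30 (from Gjb6) build the network that spreads potassium, glutamate, glucose and calcium signals, and undocked hemichannels can release ATP, glutamate and NAD to the outside. CD38 is an ectoenzyme that consumes NAD at the cell surface. Pannexins form large-pore channels of the plasma membrane that release ATP and are not known to build gap junctions in the way connexins do.

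All 7 genes were located on GRCm38 with GENCODE vM21. Gja1 lies at chr10:56377330-56402513 on the plus strand. Gjb6 (chr14:57123303-57133611) and Gjb2 (chr14:57098600-57104702) are neighbors on the minus strand, 18600 bases apart, with 1 other gene between them. Gja4 lies at chr4:127311421-127314039, Gjc3 at chr5:137953461-137963098 and Panx1 at chr9:15002128-15045478, each on the minus strand. Panx2 lies at chr15:89059734-89073567 on the plus strand, and its span overlaps that of the antisense gene 1810021B22Rik. The whole coding sequence sits in a single exon in Gja1, Gjb6, Gjb2 and Gja4, in 2 exons in Gjc3, in 5 in Panx1 and in 3 in Panx2. Few stretches of these transcripts recur elsewhere. Of the 50-base windows of their transcripts, 0.11% in Gja1 and 2.07% in Gjc3 recurred in a transcript of another gene, on either strand. None did in the other 5 members, Panx2 included. Gjc3 shares its chromosome with Cd38 at a distance of 94.0 Mb.

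The sequences just upstream of the 3 members that astrocytes expressed most are shown because Gjb6 and Gjb2 are neighbors whose levels differed widely in these cells, while Gja1 is the most abundant. Each is the 250 bases before the RefSeq start of the gene on GRCm38.p6, written on the strand of the gene. For Gja1 this is chr10:56377050-56377299 on the plus strand, for Gjb6 chr14:57133612-57133861 and for Gjb2 chr14:57104703-57104952, both on the minus strand. Capitals mark matches, on either strand, to the AP-1 motif TGAGTCA, the TATA motif TATAAA or the GC box GGGCGG, which reads CCGCCC on the other strand.
Gja1: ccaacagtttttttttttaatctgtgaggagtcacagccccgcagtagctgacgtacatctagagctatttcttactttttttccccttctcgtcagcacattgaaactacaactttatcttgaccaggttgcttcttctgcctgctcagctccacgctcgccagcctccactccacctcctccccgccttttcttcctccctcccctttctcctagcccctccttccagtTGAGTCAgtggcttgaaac
Gjb6: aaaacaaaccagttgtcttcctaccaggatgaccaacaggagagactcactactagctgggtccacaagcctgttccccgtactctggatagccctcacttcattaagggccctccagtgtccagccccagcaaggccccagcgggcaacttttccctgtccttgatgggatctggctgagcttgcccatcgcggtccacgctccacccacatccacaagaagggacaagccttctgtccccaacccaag
Gjb2: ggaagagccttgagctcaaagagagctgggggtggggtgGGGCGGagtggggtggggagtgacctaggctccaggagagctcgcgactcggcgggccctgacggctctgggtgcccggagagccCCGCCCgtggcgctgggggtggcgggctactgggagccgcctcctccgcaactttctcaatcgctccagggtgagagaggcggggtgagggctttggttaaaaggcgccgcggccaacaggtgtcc
The Gja1 stretch held 1 AP-1 match, close to the start, which 4.46% of 32851 mouse promoter windows of the same length also held. The Gjb2 stretch held 2 GC boxes, a motif found in 32.7% of the windows, and 69.2% of its bases were G or C against a median of 52.4% over all windows. No letters of these 3 motifs were found in the Gjb6 stretch, whose GC content was 56.8%, and TATAAA, found in 12.4% of all windows, was in none of the 3 stretches. A match is a description of the letters and not evidence of a bound site. RefSeq windows were matched for 6 of the 7 members.

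The targeted gene followed the labels. Cd38 TPM was 149, 120 and 105 in Cd38+/+ libraries, 90.8, 90.7 and 90.4 in Cd38+/- libraries, and between 8.54 and 21.9 with a median of 15.7 in Cd38-/- libraries. It fell by 2.96 on the log2 scale in Cd38-/- against Cd38+/+ (limma, q = 0.00116) and fell by 2.52 on that scale against Cd38+/- (q = 0.00340, but 0.0595 without Cd38+/- replicate 3). The 12 astrocyte markers were detected in every library, with a summed TPM of 10272 to 14882 in Cd38+/+, 15489 to 16868 in Cd38+/- and 11321 to 14525 in Cd38-/-. Oligodendrocyte markers summed to between 1310 and 17821 TPM over the 12 libraries and endothelial markers to between 409 and 2312, although both cell types had been depleted. The Cd38+/+ libraries stood apart: 13160 to 13516 genes had a TPM above 0 in them against 15920 to 17906 in the mutant libraries, and 193 to 336 of 11845 expressed genes were listed at 0 against 4 to 14. Cd38+/+ replicates 1, 2 and 3 were the highest or lowest of all 12 libraries for 36.7%, 40.4% and 37.0% of these expressed genes. Each mutant library was so for 3.26% to 19.7% of them. These features and the Cd38+/+ genotype cannot be told apart. The median gene of all tested genes differed by 0.15 log2 units in Cd38-/- against Cd38+/+ and by 0.18 in Cd38+/- against Cd38+/+, and by 0.03 and 0.05 when libraries were rescaled by the median ratio. Changes below are therefore also given relative to the median gene.

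Gja1 and Gjb6 dominated the connexin RNA of these astrocytes in every library. Together they made up between 96.5% and 98.2% of the summed TPM of 20 connexin genes, a sum that was 3701 ± 706 TPM (SD, n = 3) in Cd38+/+, 4737 ± 400 (n = 3) in Cd38+/- and 3894 ± 657 (n = 6) in Cd38-/- libraries. Gja1 ranked 33rd, 21st and 26th by mean TPM among all 20614 genes in Cd38+/+, Cd38+/- and Cd38-/-, and Gjb6 ranked 58th, 57th and 70th. Gjb2, which encodes Cx26, ranked 3825th, 4003rd and 5343rd.

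The order of the levels was nearly the same in the 3 genotypes. Gja1 was 1.70-fold above Gjb6 by mean TPM in Cd38+/+, 2.25-fold in Cd38+/- and 2.15-fold in Cd38-/-, and the ranges of these genes did not overlap within any genotype. Gjb6 in turn was 26.2-fold, 28.1-fold and 33.8-fold above its neighbor Gjb2. Gjb2 was above Gjc3 and Gja4 without overlap. Gjc3 and Gja4 had overlapping ranges in each genotype and could not be ordered. Panx1 overlapped Gja4 in Cd38+/+ and Cd38-/- and was below it without overlap in Cd38+/-. Panx2 was the lowest member throughout.

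**Figure D1:**
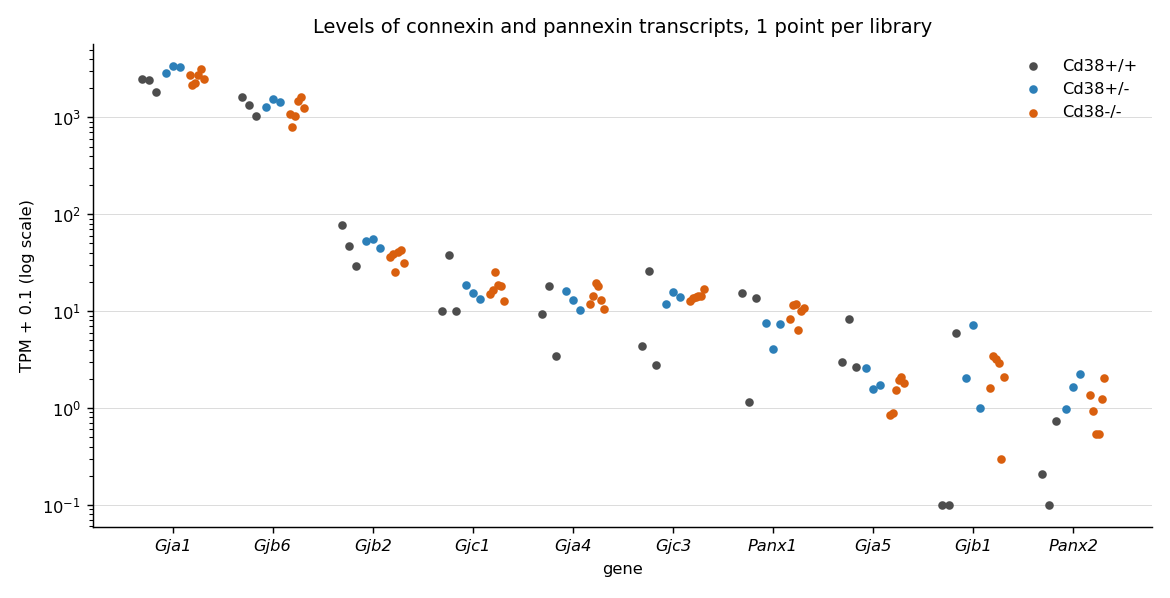
Levels of the 7 members and of 3 other connexins, as TPM + 0.1 on a log axis, with 1 point per library colored by genotype (3 Cd38+/+, 3 Cd38+/-, 6 Cd38-/-). Gja1 and Gjb6 lie above 793 TPM in every library, Gjb2 lies between 25.0 and 76.9, and the remaining genes lie below 38; points at 0.1 are libraries in which a gene was listed at 0.

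Loss of Cd38 was compared in 3 ways: Cd38-/- against Cd38+/+, Cd38+/- against Cd38+/+, and Cd38-/- against Cd38+/-. Any pair of these comparisons shares a genotype, the first pair the Cd38+/+ libraries, so the values stand side by side and are not independent. Log2(TPM + 1) was fitted with limma over all genes whose mean TPM exceeded 5 in a compared genotype, and a gene was called at a Storey q under 0.05 and a change of at least 1.2-fold. Panx2 did not pass this filter and the other 6 members did. In Cd38-/- against Cd38+/+, limma called 0 of the 6 tested members, while 8.28% of the 11722 tested genes were called, 77.5% of them as higher (58.6% after median-ratio scaling). In Cd38+/- against Cd38+/+ it called 0 of 6 members and 0% of 11763 genes, and in Cd38-/- against Cd38+/- it called 0 of 6 members and 0.0346% of 11563 genes. At an unadjusted p under 0.05 there were 0 members in the first comparison (23.6% of all tested genes), 1 in the second (13.5%) and 3 in the third (11.2%). Libraries of the genotypes did not overlap for 0, 1 and 1 of the 6 members, beside 11.8%, 22.5% and 5.73% of all tested genes. The exact two-sided permutation test, run on 7 members in each comparison, gave p under 0.05 for 0 members, 0 members and 1 member, unadjusted for the 21 tests, and cannot go below 0.1 with 3 libraries against 3. This test was not run on all genes, so these counts have no background share and cannot be read as a result about the members. The median log2 change of the 6 members was 0.31 beside 0.15 for all genes in the first comparison, 0.32 beside 0.18 in the second and -0.11 beside -0.02 in the third.

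**Figure D2:**
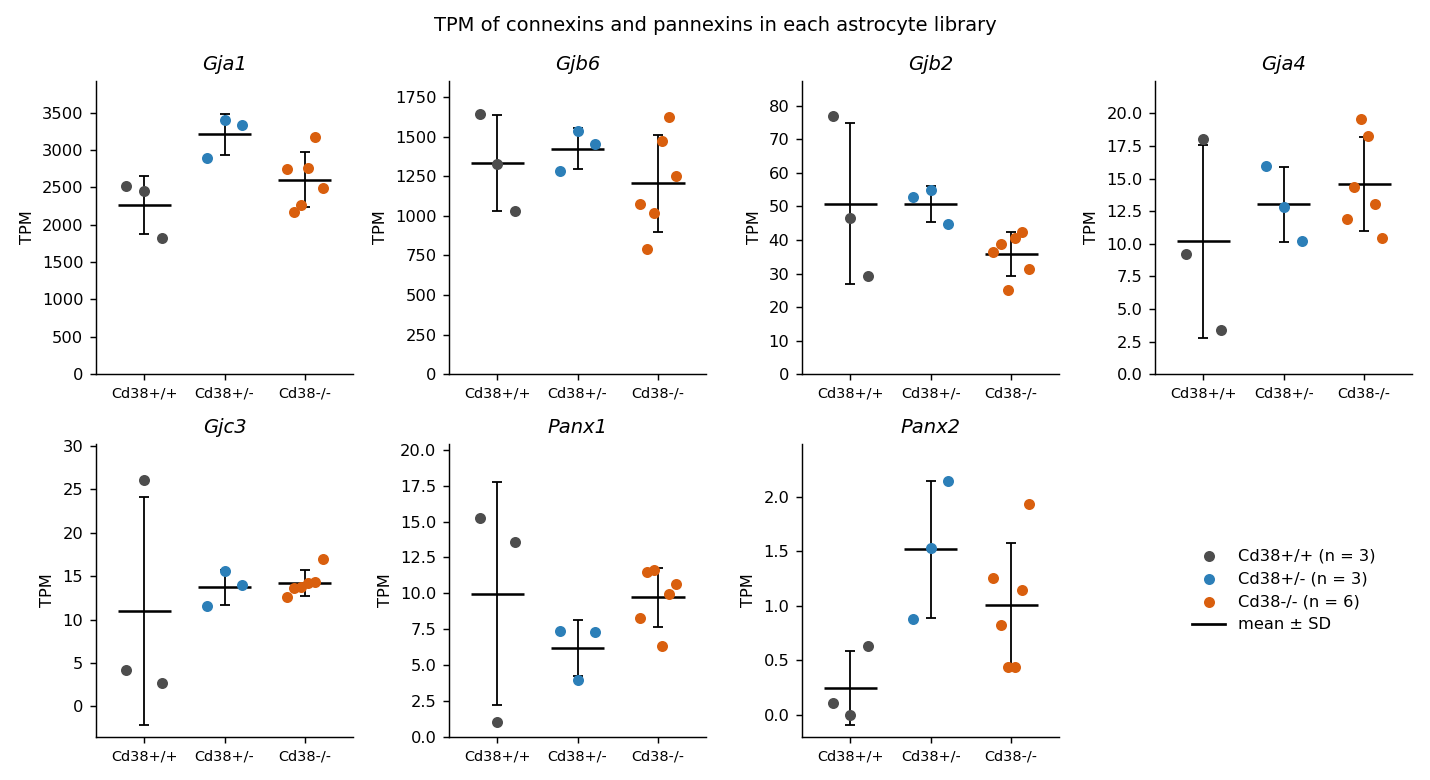
TPM of each member (vertical axis, separate linear scale per gene) in every library, by genotype, with horizontal lines at the mean and bars of 1 SD. For Gja1 the 3 Cd38+/- libraries, at 2896 to 3396 TPM, sit above the 3 Cd38+/+ libraries, at 1820 to 2519; for Gjc3, Gja4 and Panx1 the Cd38+/+ libraries span a wider range than the other 9.

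Gja1, the gene of Cx43, was higher in every Cd38+/- library than in any Cd38+/+ library, but the change did not pass the threshold. Its TPM was 2519, 2453 and 1820 in Cd38+/+ and 2896, 3396 and 3336 in Cd38+/-, and ranged from 2167 to 3171 with a median of 2619 in Cd38-/-. The Cd38-/- libraries overlapped those of both other genotypes. The log2 difference of Cd38+/- against Cd38+/+ was 0.51 ± 0.16 (SE, limma q = 0.189; exact permutation p = 0.1, the smallest possible), or 0.33 above the median gene. Among all tested genes, 15.5% were higher in Cd38+/- without overlap. It was called when all 12 libraries entered 1 fit (q = 0.0405), a fit that called 1464 genes. In Cd38-/- the log2 difference was 0.20 ± 0.15 against Cd38+/+ (q = 0.251), which is 0.05 above the median gene, and -0.31 ± 0.13 against Cd38+/- (q = 0.306).

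In Cd38+/- against Cd38+/+, the median astrocyte marker differed in the same direction as Gja1. Of the 12 markers, which do not include a connexin, 6 were higher in Cd38+/- than in Cd38+/+ without overlap beside the 15.5% of all genes, none was called, and their median log2 difference was 0.47. In Cd38-/- against Cd38+/+ the median was 0.21, and 2 were called as higher, beside 6.42% of all tested genes. Single markers went both ways there, with 1.00 for Gfap and 0.71 for Aqp4 but -0.38 for Sox9 and -0.27 for Glul. As a percentage of the astrocyte marker sum, Gja1 was 17.9 ± 1.05 (SD, n = 3) in Cd38+/+ libraries, 19.6 ± 0.760 (n = 3) in Cd38+/- and 19.7 ± 1.38 (n = 6) in Cd38-/-. Whether the marker difference had a part in that of Gja1 was not tested. In bulk libraries such as these, fewer cells of a type and less RNA per cell cannot be told apart.

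In TPM, Gjb6, the gene of Cx30, overlapped between all genotypes. Its TPM was 1642, 1328 and 1032 in Cd38+/+, 1284, 1539 and 1454 in Cd38+/-, and 793 to 1625 with a median of 1165 in Cd38-/-. The Cd38-/- range covered all 3 Cd38+/- libraries and overlapped Cd38+/+. The log2 differences were -0.16 ± 0.22 in Cd38-/- against Cd38+/+ (limma q = 0.386), 0.12 ± 0.18 in Cd38+/- against Cd38+/+ (q = 0.496, and -0.02 after median-ratio scaling) and -0.28 ± 0.20 in Cd38-/- against Cd38+/- (q = 0.455). Relative to the median gene they were -0.31, -0.06 and -0.25.

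Gjb2, the gene of Cx26, which astrocytes share with cells of the leptomeninges, had its lowest mean in Cd38-/-. Its TPM was 76.9, 46.5 and 29.3 in Cd38+/+, 52.7, 55.0 and 44.8 in Cd38+/-, and 25.0 to 42.5 with a median of 37.6 in Cd38-/-. All 6 Cd38-/- libraries were below all 3 Cd38+/- libraries, a separation in this direction that 2.88% of all tested genes showed, while the Cd38+/+ libraries spanned both. Against Cd38+/- the log2 difference was -0.51 ± 0.16 (limma q = 0.224, unadjusted p = 0.00880; exact permutation p = 0.0238). Against Cd38+/+ it was -0.41 ± 0.27 (q = 0.214), or -0.57 relative to the median gene. The Cd38+/- libraries differed from Cd38+/+ by 0.10 ± 0.33 (q = 0.573, and by -0.04 after median-ratio scaling). The value in Cd38-/- against Cd38+/+ rested on Cd38+/+ replicate 3, without which it was -0.75 and called (q = 0.0280), and on Cd38+/+ replicate 1, without which it was -0.07. Without Cd38+/+ replicate 3, 850 of 11779 tested genes were called as lower, beside 218 of 11722 with all libraries. Markers of fibroblasts and leptomeninges, 7 of 8 of them tested, summed to 216 to 360 TPM in Cd38+/+, 133 to 540 in Cd38+/- and 142 to 252 in Cd38-/-. Their median log2 difference had the direction of Gjb2, at -0.45 in Cd38-/- against both Cd38+/+ and Cd38+/-, with 0 called. Col1a1, a fibroblast collagen, was 6.64 to 9.34 TPM in Cd38+/- and 2.13 to 5.23 TPM in Cd38-/- without overlap. Dcn, which encodes the matrix protein decorin, differed by -1.10 in Cd38-/- against Cd38+/+ (limma q = 0.0564), also without overlap. Each was the only 1 of the 7 tested markers that separated in its comparison. Col1a2 overlapped, at 22.3 to 42.3 TPM in Cd38+/- and 19.2 to 30.9 TPM in Cd38-/-, and Col3a1 differed by 0.07 in Cd38-/- against Cd38+/+. The part of these cells in the Gjb2 values was not tested.

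**Figure D3:**
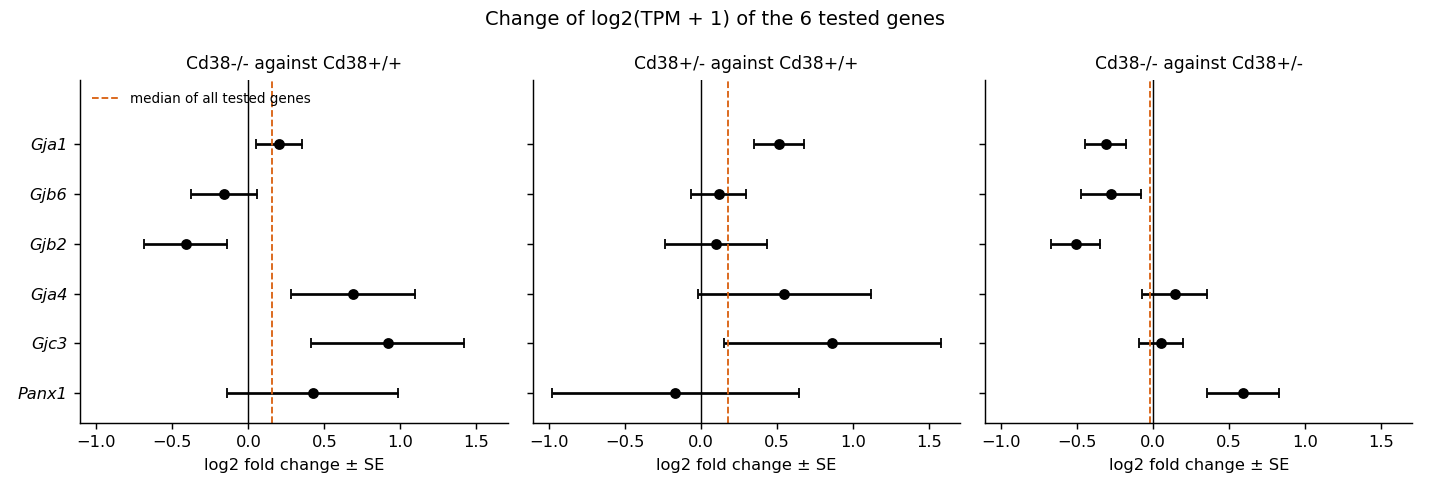
Log2 fold change of the 6 tested members in the 3 comparisons (horizontal axis, points with bars of 1 SE from limma on log2(TPM + 1)), with a dashed line at the median of all tested genes. No point was called; Gja1 in Cd38+/- against Cd38+/+ (0.51) and Gjb2 in Cd38-/- against Cd38+/- (-0.51) belong to the genes whose libraries did not overlap between the genotypes.

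A ratio of genes within a library does not depend on how that library was scaled. The level of Gjb6 relative to Gja1 was lower in all 9 mutant libraries than in the 3 Cd38+/+ libraries. The Cd38+/+ libraries stood apart for many genes, as given above. How often ratios of other gene pairs separate in this way was not examined. Gjb6 TPM was 65.2%, 54.1% and 56.7% of Gja1 TPM in Cd38+/+, 44.3%, 45.3% and 43.6% in Cd38+/-, and 36.6% to 53.5% in Cd38-/-. The means were 58.7 ± 5.79% (SD, n = 3), 44.4 ± 0.867% (n = 3) and 46.0 ± 6.87% (n = 6).

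The difference did not pass the threshold after adjustment over the 3 comparisons. The log2 ratio was -0.36 in Cd38-/- against Cd38+/+ (exact two-sided permutation p = 0.0357, Benjamini-Hochberg adjusted p = 0.107) and -0.40 in Cd38+/- against Cd38+/+ (exact p = 0.1, adjusted p = 0.15). Between Cd38-/- and Cd38+/- it was 0.04 (exact permutation p = 0.821, adjusted p = 0.821). Gja1 transcripts are longer than those of Gjb6 (3182 against 2105 bases) and lower in GC content (45.1% against 49.6%). After the trend of each library with length and GC content was removed, a step chosen after the values were seen, the log2 ratio was -0.21 in Cd38-/- (exact permutation p = 0.155) and -0.16 in Cd38+/- (p = 0.3) against Cd38+/+, so the size of the difference depended on this step.

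The share of Gja1 in all connexin TPM followed the same libraries from the other side. It was 58.9%, 62.6% and 62.5% in Cd38+/+, 67.6%, 67.3% and 68.4% in Cd38+/-, and 63.7% to 71.1% in Cd38-/-, again without overlap between Cd38+/+ and either mutant. How often shares of other genes separate in this way was not examined either. The difference was 5.69 percentage points in Cd38-/- (exact permutation p = 0.0238, adjusted p = 0.0714) and 6.40 points in Cd38+/- (exact permutation p = 0.1, adjusted p = 0.15). Cd38-/- and Cd38+/- differed by -0.71 points (exact permutation p = 0.690). Because Gjb6 makes up nearly all of the rest of the sum, the share and the ratio are not independent. Gjb2 relative to Gja1, a ratio added after the values were seen, was 3.05%, 1.89% and 1.61% in Cd38+/+, 1.82%, 1.62% and 1.34% in Cd38+/-, and 1.11% to 1.79% in Cd38-/-. These ranges overlapped, with a log2 difference of -0.62 in Cd38-/- against Cd38+/+ (exact permutation p = 0.0238, adjusted p = 0.0714).

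**Figure D4:**
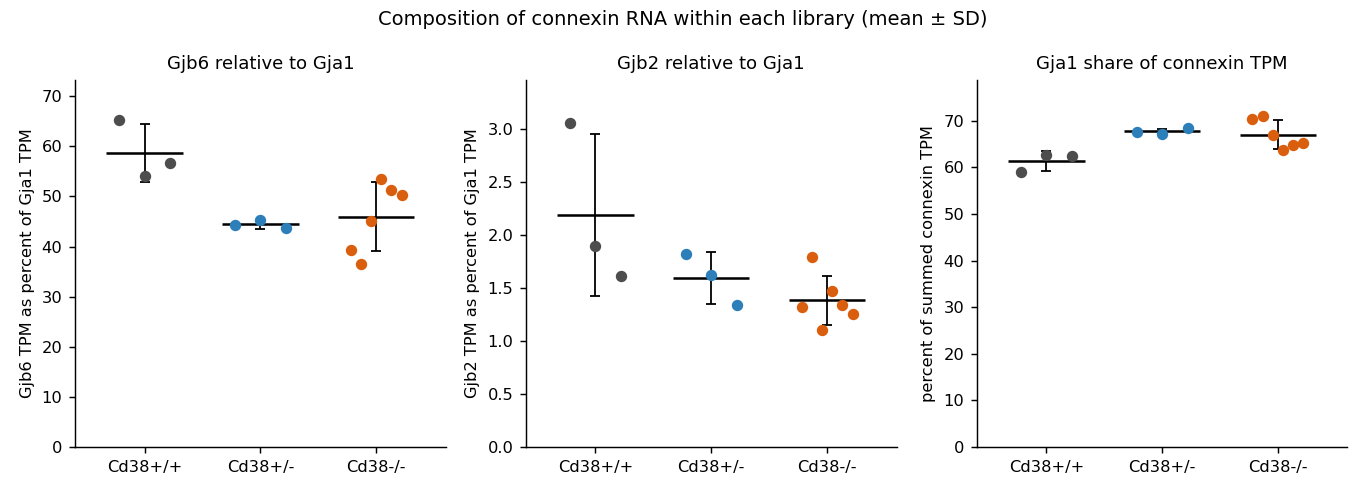
Composition of connexin RNA by genotype, with 1 point per library, lines at the mean and bars of 1 SD: Gjb6 and Gjb2 TPM as a percentage of Gja1 TPM, and Gja1 as a percentage of the summed TPM of 20 connexins. In the first panel the 3 Cd38+/+ libraries (54.1% to 65.2%) sit above the 9 mutant libraries (36.6% to 53.5%), and in the last panel they sit below them.

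Gja4 encodes Cx37, best known from the endothelium of arteries, and Gjc3 encodes Cx29, known from oligodendrocytes and Schwann cells. Both were present at low levels in these astrocyte preparations. Gja4 TPM was 9.18, 18.0 and 3.35 in Cd38+/+, 16.0, 12.8 and 10.2 in Cd38+/-, and 10.4 to 19.6 with a median of 13.7 in Cd38-/-. Gjc3 TPM was 4.25, 26.1 and 2.66 in Cd38+/+, 11.6, 15.6 and 14.0 in Cd38+/-, and 12.6 to 17.0 with a median of 13.9 in Cd38-/-. Cd38+/+ replicate 3 had the lowest value of the 12 libraries for both genes, and Cd38+/+ replicate 2 had the highest for Gjc3. Among 11845 expressed genes, replicate 3 was the lowest library for 2379 and replicate 2 the highest for 1870.

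Neither gene passed the threshold in any comparison. The log2 difference of Cd38-/- against Cd38+/+ was 0.69 ± 0.41 for Gja4 (limma q = 0.184) and 0.92 ± 0.50 for Gjc3 (q = 0.164), or 0.54 and 0.76 above the median gene. Cd38+/+ replicate 2 decided these calls: without it, the difference was 1.197 for Gja4 (q = 0.0324) and 1.79 for Gjc3 (q = 0.00327), and both were called. Calls also rose over all genes without this library, with 1394 of 11735 tested genes called as higher beside 752 of 11722 with it. Against Cd38+/+, the Cd38+/- libraries gave 0.55 ± 0.57 for Gja4 (q = 0.426) and 0.86 ± 0.71 for Gjc3 (q = 0.375). Against Cd38+/-, the Cd38-/- libraries gave 0.14 ± 0.21 (q = 0.612) and 0.05 ± 0.14 (q = 0.670).

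Markers of the cell types these connexins are known from were measured in the same libraries. Endothelial markers summed to 2312, 1265 and 479 TPM in Cd38+/+, 409 to 824 TPM in Cd38+/- and 442 to 1473 TPM in Cd38-/-. Cd38+/+ replicate 1 held the most endothelial marker RNA of the 12 libraries and the second lowest Gja4 TPM. The 10 endothelial markers had a median log2 difference of -0.11 in Cd38-/- against Cd38+/+, from -0.83 for Cldn5 to 0.80 for Pecam1. Pecam1 was 72.0, 44.9 and 0.92 TPM in Cd38+/+, 16.8 to 41.3 TPM in Cd38+/- and 18.1 to 50.5 TPM in Cd38-/-, and Cldn5 was 488, 254 and 146, 84.1 to 139, and 93.0 to 285 TPM. Oligodendrocyte markers summed to 7192, 4954 and 1310 TPM in Cd38+/+, 3098 to 11049 TPM in Cd38+/- and 3180 to 17821 TPM in Cd38-/-, a span over which Gjc3 stayed between 12.6 and 17.0 TPM. Of the defining oligodendrocyte markers, Mbp was 5318, 3356 and 598 TPM in Cd38+/+ whereas Mog was listed at 0 in all 3 of these libraries and reached 1.35 to 8.91 TPM in Cd38-/-. None of the 10 endothelial and 7 oligodendrocyte markers tested was called in Cd38-/- against Cd38+/+. The part of these cells in the Gja4 and Gjc3 values was not tested.

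**Figure D5:**
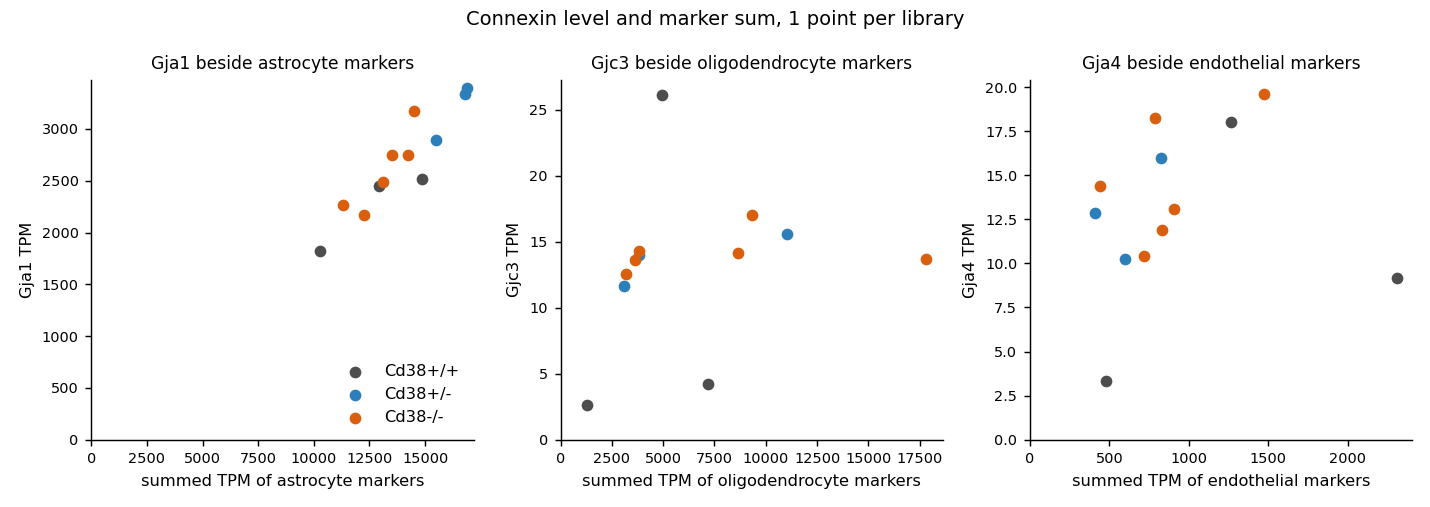
TPM of Gja1, Gjc3 and Gja4 (vertical axes) beside the summed TPM of astrocyte, oligodendrocyte and endothelial markers (horizontal axes), with 1 point per library colored by genotype. Gja1 is higher in libraries with more astrocyte marker RNA, staying between 16.9% and 21.8% of the sum, whereas Gjc3 lies between 12.6 and 17.0 TPM in Cd38-/- libraries whose oligodendrocyte markers span 3180 to 17821 TPM.

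Panx1 encodes the widely expressed pannexin channel that releases ATP. Its TPM was 15.3, 1.05 and 13.6 in Cd38+/+, 7.38, 3.95 and 7.28 in Cd38+/-, and 6.35 to 11.6 with a median of 10.3 in Cd38-/-. Cd38+/+ replicate 2 held the lowest value and replicate 1 the highest of all 12 libraries, so the other genotypes lay inside the Cd38+/+ range. Among 11845 expressed genes, replicate 2 was the lowest library for 2921 and replicate 1 the highest for 1758. The log2 difference was 0.42 ± 0.56 in Cd38-/- against Cd38+/+ (limma q = 0.382), or 0.27 above the median gene, and was -0.21 with quantile normalization and -0.55 without Cd38+/+ replicate 2. The Cd38+/- libraries differed from Cd38+/+ by -0.17 ± 0.81 (q = 0.591). Between Cd38-/- and Cd38+/- the difference was 0.59 ± 0.23 (q = 0.289, unadjusted p = 0.0280; exact permutation p = 0.0595), with 5 of 6 Cd38-/- libraries above every Cd38+/- library.

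Panx2, whose product is known mainly from neurons, was close to 0. It was listed at 0.11, 0 and 0.63 TPM in Cd38+/+, at 0.88, 1.53 and 2.14 in Cd38+/-, and at 0.44 to 1.93 with a median of 0.98 in Cd38-/-. All 3 Cd38+/- libraries were above the Cd38+/+ libraries, a separation in this direction that 15.5% of the genes that passed the filter showed. In a fit without the filter on low values, limma put the Cd38-/- libraries 0.67 above Cd38+/+ on the log2(TPM + 1) scale (q = 0.0700) and the Cd38+/- libraries 1.02 above them (q = 0.0774). The difference of Cd38-/- against Cd38+/- was -0.34 (q = 0.560). None was called. Without Cd38+/+ replicate 3 the first of these differences was 0.88 (q = 0.0257) and the second 1.22 (q = 0.0436), and both were called. The Cd38+/+ libraries listed many more genes at 0 than the others did, as given above. Of the 12 neuron markers, whose summed TPM was 68.7 to 84.4 in Cd38+/+, 44.6 to 77.0 in Cd38+/- and 55.2 to 142 in Cd38-/-, none of 7 tested was called in Cd38-/- against Cd38+/+.

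The other 16 connexin and pannexin genes of the mouse contributed little RNA. Gjc1, the gene of Cx45, known from vascular smooth muscle, was the only one that passed the filter, with 9.89, 37.8 and 10.0 TPM in Cd38+/+, 18.4, 15.3 and 13.2 in Cd38+/-, and 12.6 to 25.0 in Cd38-/-. Its log2 difference was 0.12 ± 0.39 in Cd38-/- against Cd38+/+ (limma q = 0.498). As in Gjc3, Cd38+/+ replicate 2 was the highest of the 12 libraries, which it was for 1870 of 11845 expressed genes.

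Gja5, the gene of Cx40, known from arterial endothelium like Cx37, was lower in mutant libraries. Its TPM was 2.89, 8.14 and 2.55 in Cd38+/+, 2.49, 1.48 and 1.61 in Cd38+/-, and 0.75 to 1.97 in Cd38-/-, so that every mutant library was below every Cd38+/+ library. Of the genes that passed the filter, 11.8% separated without overlap, in either direction, in Cd38-/- against Cd38+/+ and 22.5% in Cd38+/- against Cd38+/+. Its mean TPM missed the filter. In Cd38-/- against Cd38+/+, the fit without the filter called 379 of 18906 genes as lower. Gja5 was among them and fell by 1.08 on the log2 scale (limma q = 0.0488; exact permutation p = 0.0119, the smallest possible), and the difference was -0.83 in Cd38+/- (q = 0.272). Cd38+/+ replicate 2, at 8.14 TPM, carried much of the difference in Cd38-/-, which was -0.65 without it (q = 0.0719) and no longer called. The call was also lost when any 1 of the 6 Cd38-/- libraries was left out (q = 0.0631 to 0.0997). It was kept without Cd38+/+ replicate 1 (-1.27, q = 0.0371) or replicate 3 (-1.33, q = 0.0202). The annotated span of Gja5 overlaps those of 4 other genes, all on the opposite strand. Whether their transcripts share sequence was not examined.

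Gjb1, the gene of the oligodendrocyte connexin Cx32, was listed at 0 in 2 Cd38+/+ libraries and at 5.90 TPM in the third, and was 0.91 to 7.12 TPM in Cd38+/- and 0.20 to 3.35 TPM in Cd38-/-. Without a filter the Cd38-/- libraries were 0.61 above Cd38+/+ on the log2 scale (limma q = 0.287), and 1.54 above and called without Cd38+/+ replicate 3 (q = 0.0246). Gjd3 reached 4.25 TPM in Cd38+/+ replicate 3 and at most 0.28 TPM in any other library. Another 11 genes had mean TPMs below 1 in every genotype.

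Connexin channels work with scaffolds, adhesion proteins and kinases, and 2 of 19 tested genes of this kind rose in Cd38-/- against Cd38+/+ while none fell. Among them Ezr, which encodes the membrane-cytoskeleton linker ezrin of fine astrocyte processes, rose by 0.72 ± 0.19 on the log2 scale (limma q = 0.0352). Of all tested genes, 6.42% were called as higher. Ezr was not called when Cd38+/+ replicate 1 or 2 or any of Cd38-/- replicates 1, 2, 5 and 6 was left out. The list held 0 calls in these settings other than that without Cd38+/+ replicate 2, and also with Benjamini-Hochberg adjustment, without the variance trend, with weighted libraries, at a log2 change of at least 1.2 and in the fit blocked on replicate number. The median log2 change of the list was 0.28 beside 0.15 for all genes. The 20 listed genes gave 0 calls in Cd38+/- against Cd38+/+, where the median was 0.33 beside 0.18 and 3 genes had an unadjusted p under 0.05, as did 13.5% of all genes. They gave 0 calls in Cd38-/- against Cd38+/-, where 1 gene had an unadjusted p under 0.05, beside 11.2% of all genes, and the median was -0.06 beside -0.02.

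Other channels that can pass ATP or larger molecules were taken from a list of 19 genes, 12 of which were tested. Of these, 2 rose and none fell in Cd38-/- against Cd38+/+, beside 6.42% of all tested genes called as higher. Ank, which encodes an exporter of ATP and pyrophosphate, rose by 0.47 ± 0.14 on the log2 scale (limma q = 0.0439). Lrrc8b, which encodes a subunit of volume-regulated anion channels, rose by 1.42 ± 0.36 (q = 0.0319). The list held 0 calls when any of Cd38-/- replicates 1, 2, 5 and 6 was left out, with Benjamini-Hochberg adjustment, with weighted libraries and in the fit blocked on replicate number. Ank alone was lost without Cd38+/+ replicate 1, without Cd38-/- replicate 3 or 4, without the variance trend, at a log2 change of at least 1.2, with median-ratio scaling and with the length and GC trend removed. With median-ratio scaling, 1 of its genes was called as higher and 1 as lower. The median change of the list was 0.02 beside 0.15 for all genes. There were 0 calls in Cd38+/- against Cd38+/+, where 4 genes had an unadjusted p under 0.05, beside 13.5% of all genes, and 0 calls in Cd38-/- against Cd38+/-, where 3 did, beside 11.2% of all genes. Lrrc8b was 1.42 ± 0.50 higher in Cd38+/- (q = 0.202) and Ank 0.55 ± 0.17 higher (q = 0.185).

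The genes whose levels ran most like each member over the 12 libraries were found by the root mean square (RMS) difference of centered log2(TPM + 1) among 11845 expressed genes. For Gja1 they were the zinc transporter gene Slc39a12 (0.0827 log2 units), Gpld1 (0.0937) and Vcam1 (0.0994), where the RMS variation of Gja1 itself was 0.255. For Gjb6 they were the amino acid transporter gene Slc7a10 (0.102), Agt (0.108) and Tlcd1 (0.118), with 0.307 for Gjb6 itself. Gja1 and Gjb6 were not among the 3 nearest genes of each other. For Gjb2 the nearest were Fam193b (0.150), Shkbp1 (0.172) and Kat2a (0.182), with 0.409 for Gjb2 itself.

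The members of low level had other nearest genes. The nearest gene was Tfpi (0.240) for Gja4, ahead of Nup54 and P2ry14, where Gja4 itself varied by 0.576. It was Bend5 (0.186) for Gjc3, ahead of Jakmip2 and Chm, where Gjc3 itself varied by 0.749. It was Slc16a11 (0.266) for Panx1, ahead of Pecr and Pla2g4a, where Panx1 itself varied by 0.780. These likenesses rest on the same 12 libraries and their composition, and describe the pattern only.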

How the data were processed

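Astrocyte RNA of 12 libraries was converted to cDNA with the SMART-Seq v4 kit, without strand marking, and sequenced in paired 100-base reads; the labels name polyA RNA and the methods rRNA depletion. The authors trimmed reads with Trim Galore 0.6.4, mapped them to mm10 with STAR 2.7.1a and estimated expression with RSEM 1.2.28, and deposited TPM values per gene and library; the submitters' processing notes also name DESeq2 1.36.0. Their annotation is not given in the sources used here. Each column sums to 1000000, which keeps no record of read numbers: library depth is unknown, and no counting interval or floor is given. A value of 0 means listed at 0.

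From the deposited TPM, log2(TPM + 1) was fitted with limma 3.58.1 in R 4.3.3 (lmFit, eBayes with trend), with only the compared genotypes in a fit, after removal of genes whose mean TPM was 5 or lower in both. Calls needed a q under 0.05 and a change of 1.2-fold or more; the study's methods give these thresholds but name no adjustment, and Storey's was used here. Single values, ratios and shares were tested with exact two-sided permutation tests of means. The code was checked on simulated data with the spread of these libraries. Of genes changed by 1 log2 unit, it recovered 39 of 101 in Cd38-/- against Cd38+/+ and 8 of 92 in Cd38+/- against Cd38+/+. It recovered 66 of 93 in Cd38-/- against Cd38+/-. A gene that was not called may therefore still differ by this amount. Positions came from GENCODE vM21, which held 20503 of the genes, and upstream sequences from RefSeq tables.

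The members and gene lists were chosen with earlier results of these data known. Genes are named if they are members, Cd38, other connexins or pannexins with a mean TPM above 1, called list genes, markers of a cell type that a member is known from, or the 3 nearest patterns; some genes of the lists are not reported here. Alternatives were other pseudocounts, filters, scalings, adjustments, weights, all 12 libraries in 1 fit, a replicate block, and leaving out each library. Same-numbered libraries deviated together (correlation over 0.1) in 1 of 9 pairs, Cd38+/- and Cd38-/- replicate 1, so numbers were not used as pairs.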

Additional observations from a re-analysis of the deposited data

How the results depend on the processing

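The alternatives run were counted over single genes, Cd38 included, and over the log2 ratio of Gjb2 to Gja1, which has its own threshold on the adjusted permutation p. Of these values, 586 kept their direction and their side of the threshold, 23 changed sign, 13 came to pass the threshold and 10 no longer passed it. The calls of members depended on single settings. In Cd38-/- against Cd38+/+ there were 0 to 2 when a library was left out, with 2 without Cd38+/+ replicate 2 (Gja4 and Gjc3) and 1 without Cd38+/+ replicate 3 (Gjb2). Among all tested genes, the first of these settings called 1394 as higher and 537 as lower, and the second 2269 and 850. In Cd38+/- against Cd38+/+ there was 1 (Gja1) with all 12 libraries in 1 fit. Between Cd38-/- and Cd38+/- there were 5 with library quality weights, which called 3120 of all genes in that comparison and 1 in Cd38-/- against Cd38+/+. The number of members with an exact permutation p under 0.05 was 1 with a pseudocount of 0.1 and 0 to 2 with a library left out in Cd38-/- against Cd38+/+, and 0 to 2 with a library left out in Cd38-/- against Cd38+/-. No share over all genes was computed for these permutation counts. The cause was not tested.

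The number of all genes called moved more. For Cd38-/- against Cd38+/+ it was 970, and 2283 without a filter, 326 with Benjamini-Hochberg adjustment, 337 at a log2 change of at least 1.2, 1822 with all libraries in 1 fit, and 74 (without Cd38-/- replicate 2) to 3119 (without Cd38+/+ replicate 3) with a library left out. In Cd38+/- against Cd38+/+ it was 0, and 663 without a filter, 9 without the variance trend, 30 with weights, 1464 with all libraries in 1 fit, and 0 to 10 with a library left out. Between Cd38-/- and Cd38+/- it was 4, and 2 at a log2 change of at least 1.2, 1 with median-ratio scaling, 2 with the length and GC trend removed, 1 with all libraries in 1 fit, and 0 to 93 (without Cd38-/- replicate 4) with a library left out.

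With the replicate number as a block, 2, 4 and 2 genes were called in the 3 comparisons, and 2, 2 and 7 with the length and GC trend removed as well, with 0 members called in each. Correlations of same-numbered deviations ran from -0.31 to 0.45, over 0.1 in 1 of 9 pairs. The labels do not say whether equal numbers mark pairs, which these correlations cannot decide. Under the block, Gjc3 in Cd38-/- against Cd38+/- was -0.034 (-0.052 with the trend removed) and, with the trend removed, Gja1 in Cd38-/- against Cd38+/+ was -0.036.

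Directions that turned belong to differences that were not called. With quantile normalization, Panx1 was -0.21 and Gjc1 -0.10 in Cd38-/- against Cd38+/+. In Cd38+/- against Cd38+/+, Gjb6 was -0.023 and Gjb2 -0.039 with median-ratio scaling, and Gjb2 was -0.13 with weights. With a library left out, the log2 differences in Cd38-/- against Cd38+/+ ran from -0.33 to 0.0039 for Gjb6, -0.55 to 0.95 for Panx1 and -0.19 to 0.73 for Gjc1. In Cd38+/- against Cd38+/+ they ran from -0.055 to 0.28 for Gjb6, -0.24 to 0.44 for Gjb2, -0.010 to 1.05 for Gja4, -1.14 to 0.36 for Panx1 and -0.33 to 0.59 for Gjc1. For Cd38-/- against Cd38+/- they ran from -0.0079 to 0.29 for Gja4 and -0.056 to 0.14 for Gjc3, and Gjb1, without a filter, was 0.30 without Cd38+/- replicate 2. Leaving out libraries without a filter was chosen after seeing the data. The log2 ratio of Gjb6 to Gja1 in that comparison was -0.048 with the length and GC trend removed and ran from -0.010 to 0.099 with a library left out. Against Cd38+/+ this ratio in Cd38-/- stayed negative throughout, from -0.42 to -0.28 with a library left out.

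The TPM unit keeps no depth, so for values near 0, such as those of Panx2 and Gjb1 in Cd38+/+ libraries, low expression and shallow sequencing cannot be told apart. The Cd38+/+ group held 3 libraries, whose SD exceeded the mean for Gjc3.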
